A study of Mus musculus with 2 samples.

Results

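This account concerns 10 genes that mark fibroblasts, pericytes and myofibroblasts, the stromal cells of the kidney, among the 45777 genes of a read count table from whole mouse kidneys. They were taken by symbol: the growth factor receptor genes Pdgfra and Pdgfrb, the contractile genes Acta2, Tagln and Cnn1, and the matrix genes Fn1, Postn, Dcn, Lum and Fbln1. All 10 were found, and all 10 had reads in both libraries. One library, called CKO, came from mice with a conditional knockout of Inmt aimed at the proximal tubule, and the other, called Control, came from control mice. Both sets of mice were on standard chow and untreated. The labels do not give strain, sex, age, the Cre driver, the genotype of the controls or the number of animals behind each library. Inmt encodes a methyltransferase that acts on small amines, and the design asks what its loss from that tubule segment does to transcripts of the whole kidney. Each group has 1 library, so no value below has a replicate check, and no difference can be tested against the variation between animals.

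Kidney fibroblasts sit in the interstitium between the tubules, and pericytes lie along the capillaries. After tubular injury, both can turn into myofibroblasts, which carry contractile filaments and secrete collagen, fibronectin and other matrix proteins. Pdgfra and Pdgfrb are widely used to mark these cells, Acta2 is the usual myofibroblast marker, and vascular smooth muscle expresses Acta2, Tagln and Cnn1 at rest. In a bulk sample, more cells of a type and more RNA per cell cannot be told apart.

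The CKO library held 38136616 counted reads and the Control library 33618076. Values are CPM, read counts scaled by library size, after TMM scaling to effective library sizes of 42.6 (CKO) and 30.1 (Control) Mreads. Intervals are exact 95% intervals and cover counting error only. Log2 ratios set CKO over Control after adding 0.5 to both CPM values, which shrinks them for genes with few reads, and a gene with 1 CPM or more in either library was called expressed. Inmt itself had 124 CPM in CKO and 587 CPM in Control, a log2 ratio of -2.24. All 12 of a list of proximal tubule markers, which define the main cells of the kidney cortex, were expressed.

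One regulatory sequence is shown because it belongs to the best known myofibroblast marker. Transcription of smooth muscle genes is known to depend on serum response factor, which binds the CArG box, a short element with a core rich in A and T, and the Acta2 promoter is known for CArG boxes whose core departs from the consensus by a single base. The 130 bases before the start used for the Acta2 promoter lie at chr19:34255374-34255503 on the minus strand (RefSeq, GRCm38.p6). They fall inside the annotated gene span, which reaches 34255585, so distances here are counted from the promoter start. The capitals mark CArG boxes with 1 G or C allowed among the 6 core letters.
Acta2: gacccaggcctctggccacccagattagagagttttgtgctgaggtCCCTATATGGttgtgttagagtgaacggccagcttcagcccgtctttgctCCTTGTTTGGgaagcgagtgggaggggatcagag
The matches begin 84 and 34 bases before the start used for this promoter, and neither is an exact CArG box. With the core letter allowed, a setting chosen after this sequence had been seen, 9.98% of 32851 promoter windows (250 bases before to 50 after a start, both strands) held at least 1 match and 0.822% held at least 2. An exact box was present in 1.63% of windows. Windows were found for 5 of the 10 genes, namely Acta2, Cnn1, Pdgfra, Postn and Fbln1, and those of the other 4 of these 5 held no match of either kind. A match is a stretch of letters and not a measured binding site.

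All 10 genes were higher in the CKO library, and 7 of them were at least 2-fold higher on the CPM + 0.5 scale, namely Fbln1, Lum, Postn, Fn1, Tagln, Dcn and Acta2. Over all 15129 expressed genes, 10.3% were at least 2-fold higher and 1.66% at least 2-fold lower. The median log2 ratio of the 10 genes was 1.45, against 0.01 for all expressed genes. Since genes with few reads pass 2-fold more often, the count was also read by abundance. Of the 4 genes whose mean over both libraries was under 10 CPM, 3 passed, where 21.4% of all such genes did. Between 10 and 100 CPM 3 of 5 passed, where 4.81% of all genes did, and at 100 CPM or more Fn1 passed, where 1.34% did. Scaling by total counts put 9 of the 10 past 2-fold, where 15.7% of all genes passed, and a minimum of 10 CPM left 7 of the genes, of which 5 passed, where 5.62% of all genes did. Together the 10 genes took 0.0858% of all CKO reads (exact interval 0.0848 to 0.0867) and 0.0274% of all Control reads (0.0269 to 0.0280), of which Fn1 alone took 0.0465% in CKO and 0.0118% in Control.

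**Figure D1:**
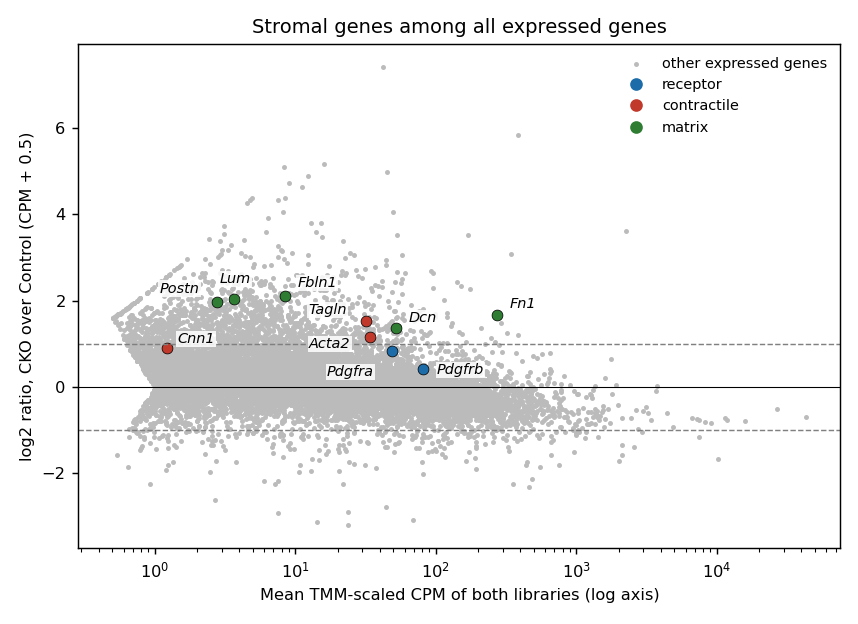
Log2 ratio of CKO over Control (vertical axis, CPM + 0.5) against the mean TMM-scaled CPM of both libraries (log axis) for each expressed gene, with the 10 stromal genes in colour by role and dashed lines at 2-fold. All 10 lie above 0, from 0.42 for Pdgfrb to 2.11 for Fbln1, and 7 lie above the upper dashed line.

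The matrix genes had the highest median of the 3 roles, and all 5 passed 2-fold upward (median log2 ratio 1.98). Fn1 encodes fibronectin, the glycoprotein on which cells assemble much of their matrix, and it had by far the most reads of the 10 genes. Its 17727 reads in CKO and 3952 in Control gave 416 CPM (410 to 422) in CKO and 131 CPM (127 to 135) in Control, 3.17-fold higher (3.06 to 3.28). Only 3.62% of expressed genes had a larger log2 ratio. Fn1 lies on chromosome 1 at 71585473 to 71653280 (GRCm38.p6, as for all positions here).

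Dcn encodes decorin, a small proteoglycan that binds collagen fibrils and TGF-beta, and quiescent fibroblasts already make it in quantity. It had 3188 reads or 74.9 CPM (72.3 to 77.5) in CKO, against 862 reads or 28.6 CPM (26.7 to 30.6) in Control. The ratio was 2.62 (2.42 to 2.82). Lum encodes lumican, a related proteoglycan that regulates fibril thickness, and its gene starts 47.3 kb beyond the end of Dcn on chromosome 10, with Dcn at 97479500 to 97518163 and Lum at 97565501 to 97572703. Lum had 263 reads or 6.18 CPM (5.45 to 6.97) in CKO and 34 reads or 1.13 CPM (0.782 to 1.58) in Control, a ratio of 5.47 (3.82 to 8.07). The 2 genes did not keep step: there were 8.25 Lum reads for every 100 Dcn reads in CKO (7.25 to 9.36) and 3.94 in Control (2.71 to 5.55). Such a quotient within a library does not depend on how the libraries are scaled.

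Fbln1 encodes fibulin 1, which binds fibronectin and basement membrane proteins, and it had the largest log2 ratio of the 10 genes, 2.11. It had 595 reads or 13.97 CPM (12.9 to 15.1) in CKO, against 86 reads or 2.86 CPM (2.28 to 3.53) in Control, 4.89-fold higher (3.90 to 6.21). Its position is chromosome 15, 85205949 to 85286294. Postn encodes periostin, a matricellular protein that normal adult kidney holds in small amounts and that is known to appear in fibrosis. It had 202 reads or 4.74 CPM (4.11 to 5.45) in CKO and 25 reads or 0.830 CPM (0.537 to 1.23) in Control. Its plain ratio of 5.71 (3.76 to 9.04) was the largest of the 10, but its interval overlapped those of Lum and Fbln1, so that the order of these 3 genes was not resolved at this depth. The interval of Fbln1 stayed above that of Fn1, the next gene in order. Postn, on chromosome 3 at 54359267 to 54391041, overlaps the lncRNA gene Gm31095, which was listed at 0 in both libraries.

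**Figure D2:**
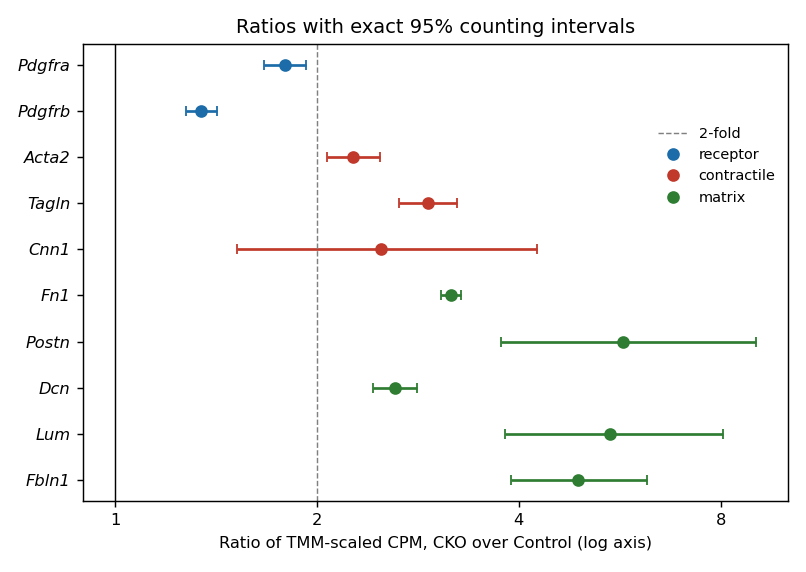
Ratio of TMM-scaled CPM, CKO over Control (log axis), for the 10 genes in order of role, with exact 95% counting intervals as bars and a dashed line at 2-fold. Every interval lies above 1, from Pdgfrb at 1.34 to Postn at 5.71, and those of Postn, Lum and Fbln1 overlap one another.

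The contractile genes were higher too, with plain ratios from 2.26 to 2.92, and 2 of 3 passed 2-fold on the CPM + 0.5 scale. Acta2 encodes smooth muscle alpha-actin, the filament protein of smooth muscle and myofibroblasts. It had 2017 reads or 47.4 CPM (45.3 to 49.5) in CKO and 630 reads or 20.9 CPM (19.3 to 22.6) in Control, 2.26-fold higher (2.07 to 2.48). Tagln encodes transgelin, an actin-binding protein of the same cells, and had 2038 reads or 47.9 CPM (45.8 to 49.99) in CKO, against 493 reads or 16.4 CPM (15.0 to 17.9) in Control. Its ratio of 2.92 (2.65 to 3.23) lay above that of Acta2, with 101 Tagln reads per 100 Acta2 reads in CKO (94.96 to 108) and 78.3 in Control (69.4 to 88.2). Cnn1 encodes calponin 1, which binds actin and slows contraction, and it was the least abundant of the 10 genes in CKO. With 74 reads in CKO and 21 in Control, or 1.74 CPM (1.36 to 2.18) and 0.697 CPM (0.432 to 1.066), its plain ratio was 2.49 (1.52 to 4.26) and its log2 ratio 0.90. Per 100 Acta2 reads there were 3.67 Cnn1 reads in CKO (2.87 to 4.63) and 3.33 in Control (2.05 to 5.14), a difference within counting error.

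These 3 genes have close relatives whose reads could be shared in counting. Acta2 lies on chromosome 19 at 34240336 to 34255585, and of the other muscle actin genes Acta1 had 6 reads in CKO, Actc1 5 and Actg2 6, with all 3 listed at 0 in Control. The cytoplasmic actin genes were far more abundant and moved less. Actb had a log2 ratio of 0.21 and Actg1 of 0.06. Tagln, on chromosome 9 at 45929628 to 45936058, overlaps Pcsk7, a protein convertase gene with 2184 reads in CKO and 1634 in Control and a log2 ratio of -0.08 (0.26 with TPM). Its relative Tagln2 had a log2 ratio of 0.86, and Tagln3 had 7 reads in CKO and 5 in Control. Cnn1, on the same chromosome at 22099221 to 22109221, is outnumbered by Cnn2, with 1909 reads in CKO and 653 in Control (2.07-fold higher), and by Cnn3, with a log2 ratio of 0.52. The relatives were looked up after the values of the 10 genes had been seen.

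The receptor genes had the smallest ratios of the 10 in the main setting, and neither was 2-fold higher there. Pdgfra encodes PDGF receptor alpha, the receptor of interstitial fibroblasts, and had 2669 reads or 62.7 CPM (60.3 to 65.1) in CKO, against 1052 reads or 34.9 CPM (32.9 to 37.1) in Control. The ratio was 1.79 (1.67 to 1.93). Pdgfrb encodes PDGF receptor beta, found on pericytes, mesangial cells and fibroblasts, and had 3933 reads or 92.4 CPM (89.5 to 95.3) in CKO and 2069 reads or 68.7 CPM (65.8 to 71.7) in Control, a ratio of 1.34 (1.27 to 1.42). Both intervals were apart from each other and from that of Acta2, the next higher gene. The interval of Pdgfra lay within that of Cnn1 (1.52 to 4.26), so the order of Pdgfra and Cnn1 was not resolved. With total counts the log2 ratio was 1.12 for Cnn1 and 1.15 for Pdgfra. There were 67.9 Pdgfra reads per 100 Pdgfrb reads in CKO (64.6 to 71.3) and 50.8 in Control (47.2 to 54.8). Relative to Pdgfrb, Acta2 was more abundant in CKO, with 51.3 Acta2 reads per 100 Pdgfrb reads in CKO (48.6 to 54.1) and 30.4 in Control (27.8 to 33.3). Relative to Pdgfra, Dcn was more abundant in CKO, with 119 Dcn reads per 100 Pdgfra reads in CKO (113 to 126) and 81.9 in Control (74.8 to 89.7). These quotients speak for the named gene pairs and not for contractile or matrix genes as classes. Pdgfra lies on chromosome 5 at 75151322 to 75198206 and hosts Mir7025, which had 3 reads in each library, and Pdgfrb lies on chromosome 18.

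Levels of different genes are compared on the authors' deposited TPM, which are per length. In CKO the order was Fn1 with 117 TPM, Dcn with 90.0, Tagln with 68.0, Acta2 with 41.9, Pdgfrb with 39.3, Pdgfra with 21.7, Fbln1 with 10.2, Lum with 6.69, Postn with 3.40 and Cnn1 with 1.96 TPM. Of these neighbours, only Acta2 and Pdgfrb had overlapping counting intervals. In Control the order was Fn1 with 27.6 TPM, Dcn with 25.6, Pdgfrb with 21.5, Tagln with 17.3, Acta2 with 13.97, Pdgfra with 8.94, Fbln1 with 1.53, Lum with 0.907, Cnn1 with 0.573 and Postn with 0.401 TPM. Fn1 and Dcn were not apart there, nor were the neighbours among Fbln1, Lum, Cnn1 and Postn. Pdgfrb thus stood at place 5 in CKO and place 3 in Control, and Tagln was above it in CKO and below it in Control. The 10 genes summed to 400 TPM in CKO and 118 TPM in Control.

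**Figure D3:**
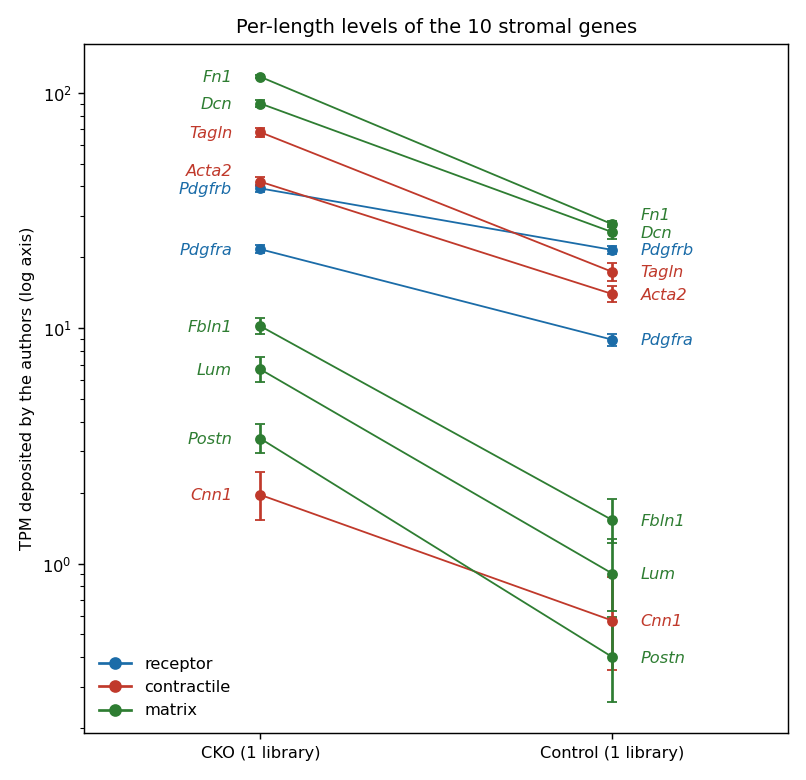
TPM deposited by the authors (log axis) for the 10 genes in the CKO library (left) and the Control library (right), with exact 95% counting intervals scaled from the reads and lines joining the values of a gene. Every line is higher at CKO, the matrix gene Postn lies above Cnn1 in CKO and below it, with overlapping intervals, in Control, and Pdgfrb has the flattest line, at 39.3 TPM in CKO and 21.5 TPM in Control.

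Other genes linked to the same cells were read from lists that share no gene with the 10. Their counts are to be read against the 10.3% of all expressed genes that were at least 2-fold higher. The lists were chosen with earlier results of these data known, so the counts are description and no independent support. Whether these cells or others gave the reads was not tested. The fibroblast list had 15 of 28 expressed genes at least 2-fold higher, none (0) at least 2-fold lower and a median log2 ratio of 1.05. Col3a1, the collagen III chain, was 5.08-fold higher (4.81 to 5.37), with 10820 reads in CKO and 1506 in Control. Runx1, a transcription factor gene, had 386 reads in CKO and 27 in Control, and the microfibril gene Mfap4 had 249 in CKO and 17 in Control. Of the genes that define the cells, Col1a1 had a log2 ratio of 2.21 and Col1a2 of 1.71. Not all genes of the list moved as much, with Col14a1 at 0.34, Snai2 at 0.22 and Pi16 at 0.10. In the main setting 27 of the 28 had log2 ratios above 0, and Meox1, with 144 reads in CKO and 164 in Control, was at -0.62. Fap, Mfap5 and Twist2 had 23, 43 and 11 reads in CKO, and all 3 were listed at 0 in Control.

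Of the genes of pericytes and other mural cells, 2 of 16 were at least 2-fold higher, a share near that of all expressed genes, none (0) was lower by that much, and the median was 0.47. With total counts 4 passed, where 15.7% of all genes did, with TPM 7, where 17% did, and with a minimum of 10 CPM none (0). With DESeq2 size factors, a pseudocount of 2 CPM, or counting intervals that had to clear 2-fold, 1 passed. A scaling added after seeing the data, called endothelial scaling below, sets the median ratio of the endothelial markers to 1. With it 1 passed too. The 2 were Rgs4, a regulator of G protein signalling, with 262 reads in CKO and 40 in Control, and Ednra, the endothelin A receptor gene, with 267 in CKO and 86 in Control. The pericyte markers Rgs5, Cspg4 and Notch3 had log2 ratios of 0.62, 0.39 and 0.63, where Pdgfrb had 0.42. Other genes of the list were nearer to 0 or below it, with Abcc9 at 0.07, Angpt1 at 0.08, Ndufa4l2 at 0.02 (-0.04 with endothelial scaling) and Kcnj8 at -0.32 (0.08 with TPM). Ren1, the renin gene of juxtaglomerular cells, had 93.9 CPM in CKO and 119 CPM in Control, a log2 ratio of -0.34 that became 0.08 with TPM.

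In the wider list of contractile genes, 4 of 15 passed 2-fold upward, or 2 when the counting interval had to clear 2-fold or with endothelial scaling, and the median was 0.43. The 4 were Actn1 (log2 ratio 1.52) and Flna (1.38), which encode actin crosslinkers found in many cell types, Csrp1 (1.03) and the tropomyosin gene Tpm1 (1.02). The other 11 had log2 ratios from -0.21 for the kinase gene Mylk (0.20 with TPM) to 0.83 for Cald1. Those between them included Tpm2 at 0.66, the desmin gene Des at 0.56, Myl9 at 0.43, Smtn at 0.37, Vcl at 0.35, Lmod1 at 0.10, Myh11, the smooth muscle myosin heavy chain, at 0.09, and Synpo2 at -0.05 (0.32 with TPM). Myh11, set beside Acta2 and Tagln after its value had been seen, had 1233 reads in CKO and 819 in Control. There were 164 Acta2 reads per 100 Myh11 reads in CKO (152 to 176) and 76.9 in Control (69.2 to 85.4), and for Tagln 165 in CKO (154 to 178) and 60.2 in Control (53.7 to 67.4). Of the regulators that act through the CArG box, 4 were expressed and 1 was at least 2-fold higher, the cofactor gene Fhl2 at 1.06, a call lost with a pseudocount of 2 CPM, with endothelial scaling and when the counting interval had to clear 2-fold. Mrtfa was at 0.40, Mrtfb at 0.38 and Srf, the serum response factor gene itself, at -0.19 (0.22 with TPM), while Myocd, which encodes the smooth muscle cofactor myocardin, had 17 reads in CKO and 15 in Control.

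**Figure D4:**
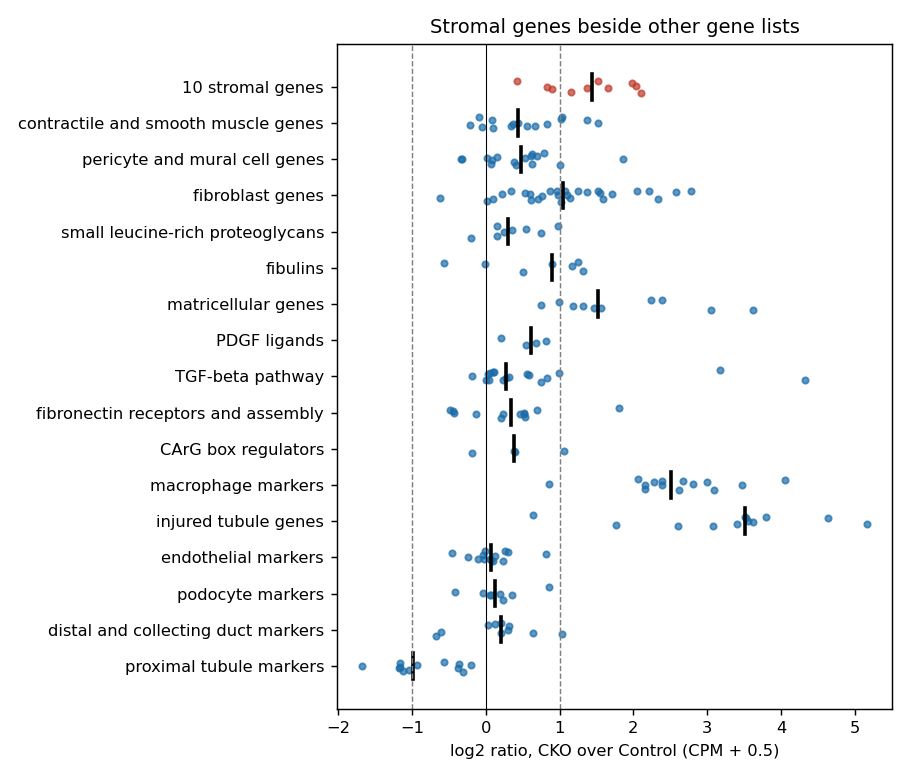
Log2 ratios of CKO over Control (CPM + 0.5) for the 10 stromal genes (top, red) and for the expressed genes of 16 other lists (blue), with the median of each as a black bar and dashed lines at 2-fold. The 10 genes have a median of 1.45, between the medians of the endothelial markers (0.07) and of the macrophage markers (2.51).

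The families of the matrix genes were mixed. Of 8 other expressed small leucine-rich proteoglycan genes none (0) was at least 2-fold higher or lower, and their median was 0.30, where Dcn had 1.37 and Lum 2.03. Biglycan (Bgn) came nearest with 0.98, at 376 CPM in CKO and 191 CPM in Control, and Aspn had 0.75. Kera and Epyc, proteoglycan genes of the same family, were listed at 0 in both libraries. Of the other fibulin genes, 3 of 7 passed 2-fold upward, Efemp2 at 1.32, Fbln2 at 1.25 and Efemp1 at 1.17, and the median was 0.89. Fbln7 went the other way, with 741 reads in CKO and 785 in Control and a log2 ratio of -0.57. Fbln5 had 160 CPM in CKO and 161 CPM in Control (log2 ratio -0.01, and 0.62 with TPM). There were 8.74 Fbln1 reads per 100 Fbln5 reads in CKO (8.03 to 9.51) and 1.78 in Control (1.417 to 2.197). In the matricellular class, to which Postn belongs, 8 of 10 genes passed 2-fold upward, and the median was 1.52. Tnc, which encodes tenascin C, was 9.85-fold higher (7.71 to 12.8), and Spp1, the osteopontin gene that injured tubule cells also express, was 12.3-fold higher (12.0 to 12.5). Tnn had 90 reads in CKO and was listed at 0 in Control.

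Lists of signals that act on these cells had lower medians than the 10 genes. All 4 PDGF ligand genes had log2 ratios above 0, none (0) reached 2-fold, and their median was 0.61, with Pdgfb, which activates both receptors, highest at 0.82 and Pdgfa at 0.67. In the TGF-beta list, a pathway known to drive myofibroblast formation, 2 of 17 genes passed 2-fold upward. That share was near the 10.3% of all expressed genes. With total counts 5 passed, where 15.7% of all genes did. The median in the main setting was 0.28. Ltbp2, which encodes a secreted matrix protein, had 633 reads in CKO and 8 in Control. The ligand genes Tgfb1, Tgfb2 and Tgfb3 had log2 ratios of 0.84, 0.99 and 0.55, and the receptor gene Tgfbr2 0.11. Fibronectin receptor and assembly genes had 1 of 12 at least 2-fold higher, also a share near that of all expressed genes. It was Itga4, an integrin subunit also carried by leukocytes, with 435 reads in CKO and 77 in Control. Itga5, the alpha subunit of the classical fibronectin receptor, was at 0.53, and Tns1, a focal adhesion gene, at -0.43.

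Markers of other cells moved as well, and some of those cells can express members of the 10. Macrophage markers had 13 of 14 genes at least 2-fold higher, where 10.3% of all expressed genes were. Their summed levels were 402 CPM in CKO and 83.0 CPM in Control, and Ms4a7 was listed at 0 in Control. Injured tubule genes had 11 of 12 at least 2-fold higher, against the same 10.3%, with sums of 5605 CPM in CKO and 589 CPM in Control. Spp1, named above as a matricellular gene and also on this list, gave 4196 CPM of that sum in CKO and 342 CPM in Control. Macrophages and injured tubule cells are both known to make fibronectin, and their part in the Fn1 ratio was not tested. Proximal tubule markers had 6 of 12 at least 2-fold lower, where 1.66% of all expressed genes were. It was 1 of 12 with total counts, where 0.67% of all genes were lower, and with TPM, where 0.902% were. The sums were 19686 CPM in CKO and 43837 CPM in Control. Kap gave 4858 CPM of the sum in CKO and 15529 CPM in Control, and Acsm2 4654 CPM in CKO and 10414 CPM in Control. With TPM, Cubn, Slc5a2, Slc22a8 and Aqp1 had log2 ratios above 0, and the other markers below 0. The part of the proximal tubule markers in the ratios of the 10 genes was not tested. Among cells outside the proximal tubule, 14 endothelial markers summed to 829 CPM in CKO and 827 CPM in Control, with a median log2 ratio of 0.07 and none (0) past 2-fold in either direction. Their log2 ratios ran from -0.45 for Kdr to 0.82 for Vwf. With total counts the median was 0.39 and 1 marker, Vwf at 1.06, passed upward, where 15.7% of all genes did. For 8 podocyte markers the sums were 464 CPM in CKO and 444 CPM in Control, with a median of 0.13, and for 10 distal and collecting duct markers the median was 0.21, with Aqp2 at 1.03 the 1 gene past 2-fold, a call lost with endothelial scaling and when the counting interval had to clear 2-fold. Per 100 reads of the endothelial gene Pecam1 there were 108 Dcn reads in CKO (102 to 113) and 40.4 in Control (37.2 to 43.7), and 68.0 Acta2 reads in CKO (64.3 to 72.0) and 29.5 in Control (26.9 to 32.3). For Pdgfrb the numbers were 133 in CKO (126 to 139) and 96.9 in Control (91.1 to 103).

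Tissue attached to the kidney can also carry stroma and muscle. Urothelial markers, which would accompany renal pelvis or ureter, summed to 3.78 CPM in CKO and 2.16 CPM in Control, with Upk1b, Upk2 and Upk3a at 0 in both libraries. Upk3b had 43 reads in CKO and was listed at 0 in Control. Of the adipocyte markers, Adipoq, Plin1, Cfd and Lep were at 0 in both libraries, and Fabp4, which endothelial cells express too, had a log2 ratio of 0.25. None (0) of 8 skeletal muscle markers was expressed.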

How the data were processed

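RNA from whole kidneys was sequenced with a stranded mRNA kit, per the labels' protocols, in 1 CKO and 1 Control library. Per the submitters' processing notes, the mm10 build and the tools HTSeq, STAR (2.7.3a), edgeR, DESeq2, FastQC and Cufflinks (2.2.1) were used, in roles that are not given. The authors deposited raw read counts per NCBI gene, with FPKM and TPM beside them per the file headers. The authors' normalized signal table holds 19550 genes and equals the counts divided by 1 constant per library (largest relative deviation 5.11e-15).

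Counts were scaled by TMM (edgeR 4.0.16, R 4.3.3) and turned into CPM. Intervals are exact Poisson for levels and Clopper-Pearson for shares and ratios. A count of 0 allows up to 3 reads, or 0.0705 CPM in CKO and 0.0996 CPM in Control. Python 3.11.15, numpy 2.4.6, pandas 2.3.3 and scipy 1.17.1 did the rest. The steps were tested on simulated counts that held set changes and counting error only. Such counts cannot show how far the calls hold across animals. With 1 library per group no test across animals exists. Genes, lists and limits were chosen with earlier results of these data known. Besides the 10 genes, the text names from each of 19 lists the most abundant expressed gene and the 2 with the largest absolute log2 ratio, some of which are not reported here. Further genes were named after their values were seen, as defining markers, family members or other genes of a list. Positions and promoters are RefSeq GRCm38.p6, the assembly of mm10, with 45679 of 45777 IDs matched. Whether counting used strand is not given in the sources used here. Alternatives were DESeq2 1.42.0 size factors, total counts, other pseudocounts, minimums and limits, the authors' units, and, added after seeing the data, scaling on endothelial markers.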

Additional observations from a re-analysis of the deposited data

How the results depend on the processing

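No paired analysis was possible because each group has 1 library, and for the same reason no library could be left out. All 10 log2 ratios stayed above 0 under all 12 alternatives and the endothelial scaling added after seeing the data. Most of these could not change a sign. A pseudocount, minimum or limit cannot do so, and the authors' normalized table is scaled almost as in the main setting. A sign could change only with DESeq2 size factors, total counts of all or part of the genes, TPM, FPKM or the endothelial scaling. None (0) of the 10 genes was 2-fold lower under any alternative. Between 7 and 9 genes were called higher, where 5.45% to 19.3% of all genes were, except with a minimum of 10 CPM, which left 7 genes and 5 calls. With FPKM 9 of the genes were expressed and 8 were called, where 10.8% of all genes were. Pdgfra and Cnn1 are the genes near the limit: Pdgfra was at 1.15 and Cnn1 at 1.12 with total counts, and 15.7% of all genes were then called higher. The median of the 10 genes was 1.76 with total counts and 1.87 with TPM, where the median of all genes was 0.32 and 0.40. The distance between the medians was 1.44 in the main setting, 1.44 with total counts and 1.47 with TPM, and lowest, 1.28, with a pseudocount of 2 CPM. Rescaling a library shifts the log2 ratios of all genes by nearly the same amount. This distance therefore hardly depends on the scaling and is no check of it. Over all genes, 1552 were higher and 251 lower. These became 2391 and 102 with total counts, 825 and 167 with a pseudocount of 2 CPM, 2920 and 1037 with a 1.5-fold limit and 2613 and 139 with TPM. The higher count was 573 with a minimum of 10 CPM, where 75.9% of called genes were higher in place of 86.1%. The lower count was 158 with total counts without mitochondrial and the 50 most abundant genes and 102 with FPKM. Depth limits Cnn1, Postn and Lum, with 21, 25 and 34 Control reads. The CArG regulator and distal lists had no (0) gene past 2-fold with the endothelial scaling, the pericyte list had none (0) and the fibroblast list 9 with a minimum of 10 CPM, and 2 PDGF ligand and 2 proteoglycan genes passed with TPM. The causes were not tested.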
